A study of Homo sapiens with 6 samples.

Results

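The genes of fatty acid oxidation were examined in the human kidney line HK-2, which comes from proximal tubule epithelium and was made immortal, with or without TGF-β1 for 24 h. The set held 38 genes, chosen by gene name from 41497 named entries, and each had exactly 1 entry, which lay on a primary chromosome. They fall into 3 steps, namely activation and import (13 genes), mitochondrial oxidation (18 genes) and peroxisomal oxidation (7 genes). Control cells were wild type and untreated, and the other cells were wild type and received TGF-β1, the cytokine that drives much of renal fibrosis. There were 3 libraries per group, with 21938622 to 26906067 counts each. The labels do not give the dose or say whether replicates were separate cultures, so p-values measure the spread between these libraries, which may be technical. The methods of the study describe serum-free medium for TGF-β treatment and do not say whether control cells were also without serum, so the cytokine and a change of serum cannot be told apart.

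Fatty acids are a main fuel of the proximal tubule. A fatty acid taken up by the cell is first activated to acyl-CoA by a long-chain acyl-CoA synthetase (ACSL). The acyl group is then moved onto carnitine by CPT1 at the outer mitochondrial membrane, carried across the inner membrane by SLC25A20 and returned to CoA by CPT2. Inside the matrix, each round of β-oxidation runs through dehydrogenation, hydration, a second dehydrogenation and thiolysis, and shortens the chain. Electrons from the first dehydrogenation reach the respiratory chain through the electron transfer flavoprotein. Peroxisomes run a parallel pathway for very long, branched and dicarboxylic chains, in which an acyl-CoA oxidase takes the place of the first dehydrogenase and hydrogen peroxide is formed.

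All 7 of 7 TGF-β response genes used as a check of the labels were higher in the treated libraries. Of 12 proximal tubule markers, 7 were under 1 TPM and LRP2, the endocytic receptor megalin, was at 0 in all 6 libraries. The summed level of the 12 was 287 to 314 TPM in control and 165 to 185 TPM after TGF-β1, and its part in the results was not tested. PAX8 (206 and 114 TPM) and GGT1 (85.9 and 52.8 TPM) carried nearly all of it, while AQP1 (log2 fold change 2.10) and CUBN (0.82) were called higher at low levels. Of 5 epithelial markers, KRT8 (0.65) and KRT18 (0.58) rose, KRT19 (-1.34) and EPCAM (-1.25) fell, CDH1 was under 1 TPM, and their sum was 1495 to 1561 TPM in control and 1703 to 1867 TPM with TGF-β1. Of 5 fibroblast markers, PDGFRB (3.38) and COL3A1 (2.78) rose from low levels and LUM (-0.28) fell, with a sum of 71.7 to 86.4 TPM in control and 59.6 to 63.5 TPM with TGF-β1. Of 4 leukocyte markers, 3 were under 1 TPM, as were 5 of 5 distal nephron and 3 of 4 endothelial markers. The remaining endothelial marker, CDH5, had 29, 16 and 17 reads in control and 0 in the treated libraries. CD68 carried nearly all of the summed leukocyte level of 184 to 199 TPM in control and 111 to 147 TPM with TGF-β1. TGF-β1 replicate 1 stood apart from its group on the second principal component, which held 9.94% of the variance (26.95 against -13.17 and -15.14). In bulk RNA, fewer cells of a type and less RNA per cell cannot be told apart.

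The 3 steps are described side by side, and no test compared them. In activation and import 5 of 9 tested genes fell (3 without control replicate 1 or 2), the mitochondrial genes included small rises and larger falls, and the peroxisomal step held both the largest rise of the set and 3 falls. After the filter on low counts, 31 of the 38 members were tested. Of these, 7 were called higher at an adjusted p under 0.05, beside 22.2% of the 14860 genes tested, and 12 were called lower, beside 22.1%. In all, 44.3% of genes were called in either direction. The share called higher was 22.6% and the share called lower was 38.7%. The first depended on the processing, at 1 member (3.23%) beside 14.4% of all genes with total counts only and at 4 members (12.9%) beside 19.7% with DESeq2. The share called lower was 41.9% beside 30.9% of all genes with total counts only, and 38.7% beside 19.3% with DESeq2. A change of at least 2-fold was called for 1 member, beside 9.06% of all genes. Values of the groups did not overlap for 22 members, beside 55.6% of all genes. The median log2 fold change was -0.02 over the members and 0.01 over all genes. When libraries were scaled by total counts only, without the TMM correction, the median of all genes moved to -0.10 and that of the members to -0.13. Small changes are therefore read relative to this shift.

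**Figure D1:**
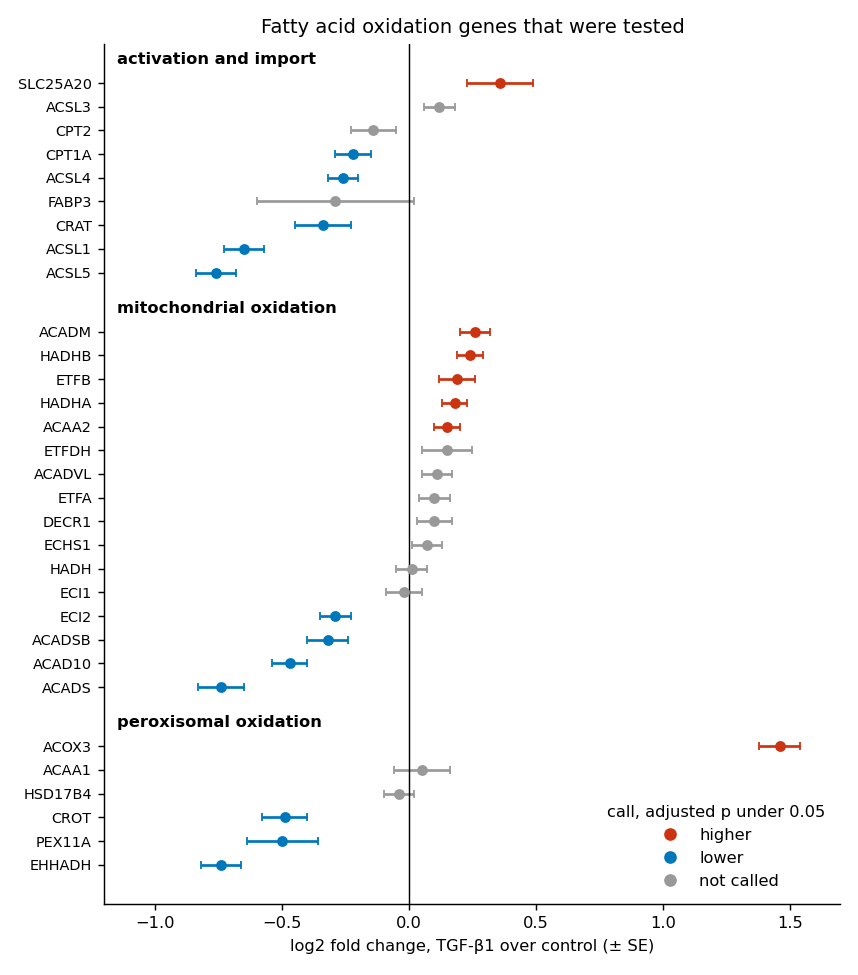
Log2 fold change of TGF-β1 over control (horizontal axis, with standard error) for the 31 members tested, grouped by step and coloured by call. In the mitochondrial step the called rises reach 0.26 and the called falls reach -0.74, and ACOX3 at 1.46 lies apart from every other member.

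In activation and import, 5 of 9 tested members fell, 1 rose and 3 were not called, and the median log2 fold change was -0.26. The shares were 55.6% lower and 11.1% higher, beside 22.1% and 22.2% of all genes, and rest on few genes. The falls were in 3 acyl-CoA synthetases, in CPT1A and in CRAT. ACSL4, the synthetase that prefers arachidonic acid, was by far the most abundant member of this step. It stood at 308, 330.2 and 340 TPM in control and 223, 274 and 259 TPM after TGF-β1. The groups did not overlap, and its log2 fold change on TMM-scaled counts was -0.26 ± 0.06 (SE, adjusted p 0.00832). ACSL3, a synthetase of the endoplasmic reticulum and lipid droplets, was next at 56.9, 56.6 and 55.2 TPM in control and 51.8, 59.1 and 58.2 TPM with TGF-β1. Its TPM values overlapped between groups, and its log2 fold change was 0.12 ± 0.06, which was not called (adjusted p 0.109).

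ACSL1 and ACSL5 had the largest falls of the step. ACSL1 (chromosome 4, 184755595 to 184826593, minus strand, hg38) is a synthetase of mitochondrial and endoplasmic reticulum membranes. It was measured at 47.3, 42.6 and 44.5 CPM (counts scaled to library size with TMM) in control and at 25.8, 29.4 and 30.6 CPM with TGF-β1. Every treated library lay below every control library, with a fall to 0.638 of control (log2 fold change -0.65 ± 0.08, adjusted p 5.2e-05). ACSL5 (chromosome 10, 112374116 to 112428376, plus strand), a synthetase of the mitochondrial outer membrane and endoplasmic reticulum, had 18.1, 18.2 and 18.2 CPM in control. After TGF-β1 it had 9.76, 11.1 and 11.3 CPM. The control libraries were nearly equal and the treated ones all lower, at 0.590 of control (log2 fold change -0.76 ± 0.08, adjusted p 2.1e-05).

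Within the family, the shares of the minor members moved and that of ACSL4 did so little. ACSL4 held 75.9% ± 1.14 of the summed ACSL TPM in control and 75.1% ± 0.623 after TGF-β1 (SD, n = 3). The ACSL1 share was 7.30% ± 0.509 and 5.50% ± 0.224. For ACSL5 the share was 3.73% ± 0.0636 and 2.60% ± 0.0645, and for ACSL3 it was 13.1% ± 0.662 and 16.8% ± 0.519. The family sum was 429.7 ± 15.1 TPM in control and 336 ± 33.2 TPM with TGF-β1. ACSL6, a synthetase known mainly from brain, had 0, 0 and 1 reads without the cytokine and 1, 0 and 2 with it, which is too few to compare.

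CPT1A, the liver form of the carnitine palmitoyltransferase that sets the rate of mitochondrial import, was the only CPT1 form with more than a few reads, at 99.4% of the CPT1 TPM in control and 99.5% after TGF-β1. Its values were 43.7, 42.1 and 40.4 CPM in control and 33.9, 35.7 and 38.6 CPM with TGF-β1. The groups did not overlap but lay close, and the log2 fold change was -0.22 ± 0.07 (adjusted p 0.0191). Without control replicate 1 (-0.19) or 2 (-0.22), CPT1A was no longer called. CPT1B, the muscle form, had 1, 2 and 3 control reads and 0, 1 and 0 treated ones. The ratio of reads scaled to library size was 0.153 (95% exact interval 0.00333 to 1.26, exact conditional p = 0.0603), and the exact permutation p of 0.1 is the smallest that 3 against 3 libraries allow. A readthrough entry, CHKB-CPT1B, covers 90.7% of its length, so its count is uncertain. CPT1C, the neuronal form, had 0, 3 and 1 reads and then 2, 4 and 2 reads (ratio 1.84, interval 0.493 to 8.35).

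The carriers beyond CPT1 did not move as one. SLC25A20, the carnitine-acylcarnitine translocase, was the member of the step that rose, from 4.76 ± 0.437 to 6.13 ± 0.454 CPM (log2 fold change 0.36 ± 0.13, adjusted p 0.0394). Its call was lost in 7 of 15 alternatives, among them DESeq2 and total counts only (0.25). It was also lost without control replicate 1 (0.31) or 2 (0.35), or without TGF-β1 replicate 2 (0.33) or 3 (0.32). CPT2, the matrix palmitoyltransferase, was not called at 11.0 ± 0.192 and 10.0 ± 0.711 CPM (-0.14 ± 0.09, adjusted p 0.233). CRAT, the acetyltransferase that buffers short acyl groups on carnitine, fell from 19.2 ± 1.12 to 15.1 ± 2.55 CPM (-0.34 ± 0.11, adjusted p 0.0317). Leaving out any one library other than TGF-β1 replicate 1 ended the CRAT call, with log2 fold changes from -0.38 to -0.23.

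CD36 and FABP3, the members for uptake and binding of free fatty acid, were low. CD36, the scavenger receptor that takes up long-chain fatty acids, was covered by 1, 4 and 0 reads in the control libraries and by 4, 3 and 3 in the treated ones. The ratio was 1.84 (95% exact interval 0.573 to 6.86, exact conditional p = 0.308), so neither a rise nor a fall was detectable at this depth. FABP3, the fatty acid binding protein of heart and muscle, stood at 1.25 ± 0.368 and 1.03 ± 0.336 CPM and was not called (-0.29 ± 0.31). ZCCHC17, on the opposite strand, overlaps 16.2% of the FABP3 length, and whether counting used strand is not given in the sources used here.

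**Figure D2:**
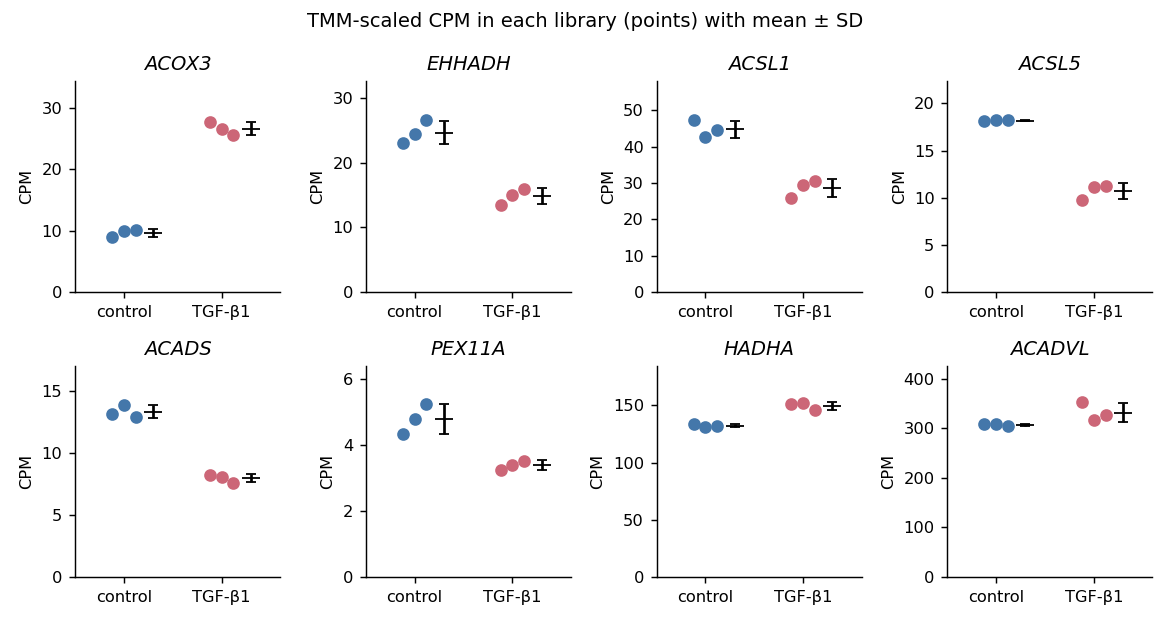
TMM-scaled CPM (vertical axis, from 0) of 8 members in each of the 3 control and 3 TGF-β1 libraries (points), with the mean and SD in black. None of the 8 members, which were picked for display, shows overlap between groups, and 55.6% of all genes show none either. Of the 8, 6 have a called log2 fold change of at least 0.5 in size. The difference in HADHA (132 and 149 CPM) and the uncalled one in ACADVL (307 and 332 CPM) are small beside the level.

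Mitochondrial oxidation had 5 members higher, 4 lower and 7 not called of 16 tested, with a median log2 fold change of 0.10. The shares of 31.2% and 25% lay near those of all genes (22.2% and 22.1%), and leaving out any 1 library left 2 or 3 called higher. All 5 rises were of at most 0.26 on the log2 scale, and each lost its call with total counts only, where the median of the step was -0.01. The 4 falls ranged from -0.29 to -0.74 and kept their call and direction in the 15 alternatives run for each gene. They were in ACADS, ACAD10, ACADSB and ECI2, of which the first 2 were also called against a 1.2-fold limit.

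The acyl-CoA dehydrogenases, which start each round, moved in both directions. ACADVL, for very long chains, was the most abundant mitochondrial member, at 387, 393 and 397 TPM in control and 402, 380.5 and 388 TPM with TGF-β1. The TPM ranges overlapped, but the CPM values did not (308, 308 and 305 in control, 353, 316 and 326 with TGF-β1). The log2 fold change of 0.11 was not called (adjusted p 0.125). ACADM, for medium chains, rose from 43.8 ± 2.95 to 52.3 ± 1.22 CPM (0.26 ± 0.06, adjusted p 0.0076), and was 0.15 without a call with total counts only.

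ACADS (chromosome 12, 120725826 to 120740008, plus strand), for short chains, fell. It stood at 13.2, 13.9 and 12.9 CPM in control and 8.22, 8.11 and 7.59 CPM after TGF-β1. All treated libraries were below all control libraries, at 0.598 of control (-0.74 ± 0.09, adjusted p 4.2e-05). The TPM of ACADS over that of ACADM was 0.363 ± 0.0398 in control and 0.181 ± 0.0114 with TGF-β1 (SD, n = 3). ACADSB, which acts on short branched chains from isoleucine, fell from 12.7 ± 0.374 to 10.1 ± 0.366 CPM (-0.32 ± 0.08, adjusted p 0.0078). ACAD10, an acyl-CoA dehydrogenase family member, fell from 22.7 ± 0.821 to 16.4 ± 0.549 CPM (-0.47 ± 0.07, adjusted p 2.1e-04).

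Of the remaining dehydrogenases, ACADL, for long chains, had 0 reads in all 6 libraries, which allows up to 0.0442 CPM in control and 0.0406 after TGF-β1 (counting error only). ACAD11, which acts on very long chains and is also found in peroxisomes, had 1, 6 and 10 control reads and 3, 10 and 7 treated ones (ratio 1.08, 95% exact interval 0.538 to 2.20). Its exons overlap other listed entries, so this value is uncertain.

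The trifunctional protein carries out the last 3 reactions on long chains, and both of its subunits rose. HADHA, the α subunit, was at 134, 131 and 132 CPM in control and 151, 152 and 146 CPM with TGF-β1. HADHB, the β subunit with the thiolase activity, was at 66.3, 66.6 and 66.6 CPM and then 80.5, 76.6 and 79.2 CPM. Neither gene overlapped between groups, and the rises were 0.18 ± 0.05 (adjusted p 0.0125) and 0.24 ± 0.05 (adjusted p 0.00285) on the log2 scale. With total counts only they were 0.07 and 0.14 and not called, and HADHA also lost its call without control replicate 2 (0.17) or TGF-β1 replicate 2 (0.16). The TPM of HADHA over HADHB was 1.53 ± 0.0233 in control and 1.46 ± 0.0556 after TGF-β1.

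These 2 genes lie head to head on chromosome 2, with 284 bases between the end of HADHA (26244632) and the start of HADHB (26244917). The HADHB promoter is shown because it covers most of this shared stretch, and the ACADS promoter because ACADS had the deepest mitochondrial fall. Each runs from 250 bases before the RefSeq start to 50 bases after it on GRCh38.p14, 5′ to 3′ on the plus strand, at chr2:26244689-26244988 for HADHB and chr12:120725576-120725875 for ACADS. Capitals mark GGGCGG, the GC box, on either strand.
HADHB: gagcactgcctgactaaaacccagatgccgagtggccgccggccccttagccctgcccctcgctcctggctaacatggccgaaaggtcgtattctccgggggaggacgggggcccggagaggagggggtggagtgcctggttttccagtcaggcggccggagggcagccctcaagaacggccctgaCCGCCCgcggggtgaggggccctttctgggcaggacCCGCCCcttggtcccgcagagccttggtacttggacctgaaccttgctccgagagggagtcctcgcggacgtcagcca
ACADS: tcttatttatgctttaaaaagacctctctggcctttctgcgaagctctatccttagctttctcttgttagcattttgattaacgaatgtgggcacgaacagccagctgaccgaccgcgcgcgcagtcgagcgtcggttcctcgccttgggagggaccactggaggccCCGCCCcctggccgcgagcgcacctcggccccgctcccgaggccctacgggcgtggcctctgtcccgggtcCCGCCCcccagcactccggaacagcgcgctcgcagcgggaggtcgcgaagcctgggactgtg
Both promoters held the GC box 2 times, and any link of this motif to the direction of change was not tested. RefSeq promoters were at hand for 30 of 38 members (53 promoters, since a gene may have several). The GC box was in 60.4% of these and in 45% of all 35116 promoters, and the median GC content was 65% and 58.7%. By gene, 6 of 7 members called higher, 8 of 10 called lower and 8 of 9 not called had it. The nuclear receptor half-site AGGTCA was in 7.55% of member promoters and 13.8% of all. CAGAC, the core bound by SMAD proteins, was in 37.7% and 45.3%. No member promoter held the direct repeat of AGGTCA spaced by 1 base (0.0228% of all), TCAAGGTCA (0.353% of all) or GTCTAGAC (0.202% of all). Both strands were searched, and the repeat and TCAAGGTCA contain AGGTCA. A match describes letters in the window and not a site in use.

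The other matrix enzymes of the cycle had small log2 fold changes. ECHS1, the short-chain hydratase and the next most abundant mitochondrial member, was at 186, 174 and 181 TPM in control and 173, 172 and 179 TPM with TGF-β1. Its log2 fold change of 0.07 was not called (adjusted p 0.341). HADH, the dehydrogenase for medium and short chains, was at 57.5 ± 2.71 and 57.9 ± 2.44 CPM and was not called (0.01). ACAA2, the matrix thiolase, was called at 75.1 ± 1.88 and 83.3 ± 2.79 CPM (0.15 ± 0.05, adjusted p 0.0432), but this call was lost in 13 of 15 alternatives and in every one that left out a library. The signs of ECHS1 (-0.04) and HADH (-0.10) turned with total counts only.

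The auxiliary enzymes reshape double bonds of unsaturated chains. ECI2, a delta-enoyl-CoA isomerase also found in peroxisomes, fell from 56.1 ± 2.03 to 45.9 ± 2.86 CPM (-0.29 ± 0.06, adjusted p 0.00375). Its mitochondrial relative ECI1 was not called (-0.02, adjusted p 0.844), nor was DECR1, the dienoyl-CoA reductase (0.10, adjusted p 0.251). C6orf201, on the opposite strand, overlaps 23.9% of the ECI2 length and had 84 reads in control and 51 with TGF-β1.

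The electron transfer genes had small positive values. ETFB, the β subunit of the flavoprotein, was called higher at 44.4 ± 2.70 and 50.5 ± 2.58 CPM (0.19 ± 0.07, adjusted p 0.0415), and this call was lost in 9 of 15 alternatives, including each that left out a library. ETFA, the α subunit, was not called (0.10, adjusted p 0.213, and -0.01 with total counts only). ETFDH, the dehydrogenase that passes the electrons to ubiquinone, was not called either (0.15 ± 0.10, adjusted p 0.262), and PPID overlaps 15.2% of its length on the other strand.

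**Figure D3:**
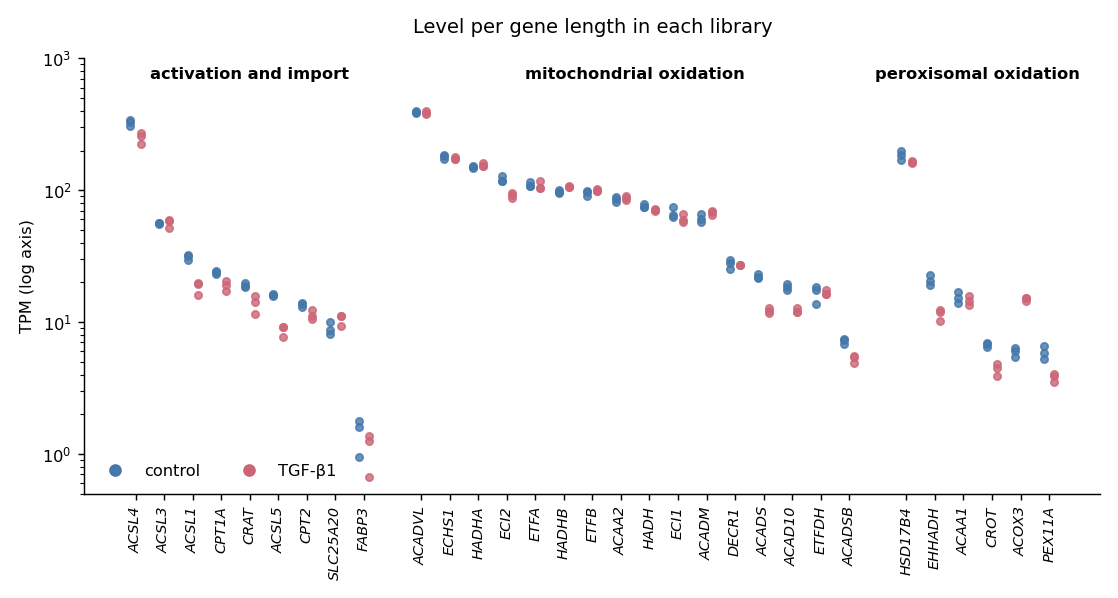
TPM (vertical log axis) of the 31 members tested, in each of the 3 control (blue) and 3 TGF-β1 (red) libraries, ordered within each step by control mean. ACSL4, ACADVL and HSD17B4 lead their steps at means of 326, 392 and 184 TPM in control, and the members that moved most, such as ACOX3, ACSL5 and ACADS, sit lower.

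Peroxisomal oxidation had 1 member higher, 3 lower and 2 not called of 6 tested. The shares were 16.7% higher and 50% lower, beside 22.2% and 22.1% of all genes, and rest on few genes. ACOX3 (chromosome 4, 8366263 to 8440723, minus strand), the oxidase for branched-chain acyl-CoA, had the only change of at least 2-fold among the members. It was at 8.99, 9.89 and 10.2 CPM in control and 27.7, 26.5 and 25.6 CPM after TGF-β1. Every treated library lay above every control library, with a 2.74-fold rise (log2 fold change 1.46 ± 0.08, adjusted p 7.7e-08). The log2 fold change lay between 1.35 and 1.49 in all 15 alternatives. No exon base of ACOX3 was shared with another listed entry.

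The ACOX3 promoter is shown as that of the member with the largest change. It lies at chr4:8440674-8440973 on GRCh38.p14, is printed 5′ to 3′ on the minus strand, and starts from the same base as the gene in the deposited tables.
ACOX3: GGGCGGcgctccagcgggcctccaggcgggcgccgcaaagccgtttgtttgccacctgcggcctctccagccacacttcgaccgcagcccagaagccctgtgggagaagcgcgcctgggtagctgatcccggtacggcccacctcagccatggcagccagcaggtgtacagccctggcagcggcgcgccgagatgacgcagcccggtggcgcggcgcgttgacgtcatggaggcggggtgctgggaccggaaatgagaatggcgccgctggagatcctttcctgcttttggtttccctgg
Capitals again mark the GC box, here 1 time, and AGGTCA was not found in these letters. RefSeq lists 2 promoters for this gene, of which this is the one at the listed start.

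EHHADH (chromosome 3, 185190624 to 185254049, minus strand), the bifunctional hydratase and dehydrogenase of the peroxisome that acts on straight and dicarboxylic chains, moved the other way. It was at 23.0, 24.4 and 26.5 CPM in control and 13.5, 15.0 and 15.9 CPM with TGF-β1. The groups were well apart, at 0.600 of control (-0.74 ± 0.08, adjusted p 3.6e-05). Per gene length, ACOX3 stood at 0.285 ± 0.00742 of the EHHADH TPM in control and at 1.31 ± 0.161 after TGF-β1 (SD, n = 3). The order of these 2 genes thus turned over in all 3 treated libraries (1.49, 1.28 and 1.17).

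The most abundant peroxisomal member was not called. HSD17B4, the bifunctional enzyme for branched and very long chains, was at 186, 169 and 197 TPM in control and 162, 164 and 166 TPM with TGF-β1. The TPM ranges did not overlap. On TMM-scaled counts the groups overlapped (171 ± 11.9 and 166 ± 3.13 CPM), and the log2 fold change of -0.04 was not called (adjusted p 0.587). ACAA1, the peroxisomal thiolase, was not called at 10.5 ± 1.10 and 10.8 ± 1.18 CPM (0.05, adjusted p 0.733).

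Genes for export and for division of the organelle fell. CROT, the octanoyltransferase that passes shortened chains to carnitine for use in mitochondria, fell from 13.5 ± 0.508 to 9.62 ± 0.745 CPM (-0.49 ± 0.09, adjusted p 9.8e-04). ABCB4 lies on the opposite strand, overlaps 12% of the CROT length and went from 504 to 255 reads. PEX11A (chromosome 15, 89681535 to 89690754, minus strand), a peroxisome proliferation factor, was at 4.34, 4.78 and 5.24 CPM in control and 3.23, 3.39 and 3.53 CPM after TGF-β1. The groups did not overlap (-0.50 ± 0.14, adjusted p 0.0114). ACOX2, the oxidase of bile acid intermediates, had 0, 2 and 0 control reads and 1, 1 and 0 treated ones (ratio 0.920, 95% exact interval 0.0667 to 12.7, exact conditional p = 1). No change in ACOX2 was detectable at this depth.

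Summed over members, the steps differed in level as well. Activation and import summed to 497 ± 15.7 TPM in control and 391 ± 35.0 TPM with TGF-β1, a ratio of 0.788. Without ACSL4 the ratio was 0.817, so the lower sum did not rest on that gene alone. Mitochondrial oxidation summed to 1529 ± 28.8 and 1487 ± 14.5 TPM (ratio 0.973), and peroxisomal oxidation to 238 ± 14.3 and 213 ± 2.83 TPM (ratio 0.895). TPM carries no TMM correction, and the TMM factors were 1.0297 to 1.0462 in control and 0.9585 to 0.9718 with TGF-β1, so a gene with a small log2 fold change above 0 can have a lower TPM after treatment. CRAT, ECI2 and ACAD11 have products found in mitochondria and in peroxisomes, and counting them as peroxisomal gave 5 falls in that step.

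Other genes of the pathway were taken from lists of 85 genes, of which 66 were tested, with 10 higher, 22 lower and a median log2 fold change of -0.16. The shares were 15.2% and 33.3%, beside 22.2% and 22.1% of all genes, and with few genes each the lists are given as counts, several of them near those shares. The carnitine and malonyl-CoA list had 1 higher and 4 lower of 7 tested, the list of transporters, binding proteins and other synthetases 2 higher and 5 lower of 13, and the other mitochondrial acyl-CoA enzymes 2 higher and 3 lower of 13. The ketone body and acetyl-CoA list had 1 higher and 2 lower of 5, the other peroxisomal enzymes and transporters 2 higher and 4 lower of 14, and the peroxisome assembly genes 2 higher and 4 lower of 14. ACSM5, a medium-chain synthetase named for a called change of at least 2-fold, fell from 1.28, 1.14 and 1.41 to 0.499, 0.496 and 0.764 CPM (-1.13 ± 0.26, adjusted p 0.00428).

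Further genes of these lists are named after their values were seen. CAT, the catalase that breaks down the hydrogen peroxide made by peroxisomal oxidases, fell from 25.0, 25.6 and 26.0 to 19.7, 16.5 and 15.8 CPM (-0.55 ± 0.09, adjusted p 3.6e-04). ABCD3, a peroxisomal importer of acyl-CoA, fell (-0.19 ± 0.06, adjusted p 0.0165). ACOX3 was thus higher, while ABCD3, EHHADH, CROT and CAT were lower. HSD17B4, the bifunctional enzyme for branched chains, and the thiolase ACAA1 also act after an oxidase and were not called (-0.04 and 0.05).

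Genes of carnitine supply and of control of CPT1 moved in both directions. SLC22A5, the main carnitine transporter of the cell membrane, fell from 14.1, 13.8 and 13.3 to 7.6, 8.44 and 8.45 CPM (-0.75 ± 0.09, adjusted p 4.3e-05). ACACB, which makes the malonyl-CoA that inhibits CPT1, fell as well (-0.66 ± 0.10, adjusted p 3.6e-04), and so did MLYCD, which removes malonyl-CoA (-0.34 ± 0.11, adjusted p 0.0283). ALDH9A1, a carnitine synthesis gene, rose (0.33 ± 0.05, adjusted p 6.1e-04), and TMLHE, another, was not called (-0.16 ± 0.09, adjusted p 0.169). Transporters of fatty acids also differed, as SLC27A4 rose from 29.4, 29.0 and 27.5 to 53.9, 44.2 and 50.2 CPM (0.79 ± 0.08, adjusted p 1.3e-05) and SLC27A1 fell (-0.26 ± 0.09, adjusted p 0.0377). SLC27A5 was not called (-0.43 ± 0.19, adjusted p 0.0826), and SLC27A2, under the filter, had 7, 8 and 13 reads in control and 2, 0 and 1 with TGF-β1. The acetate synthetases ACSS1 and ACSS2 fell (-0.93 ± 0.09 and -0.80 ± 0.09, adjusted p 1.4e-05 and 3.3e-05).

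**Figure D4:**
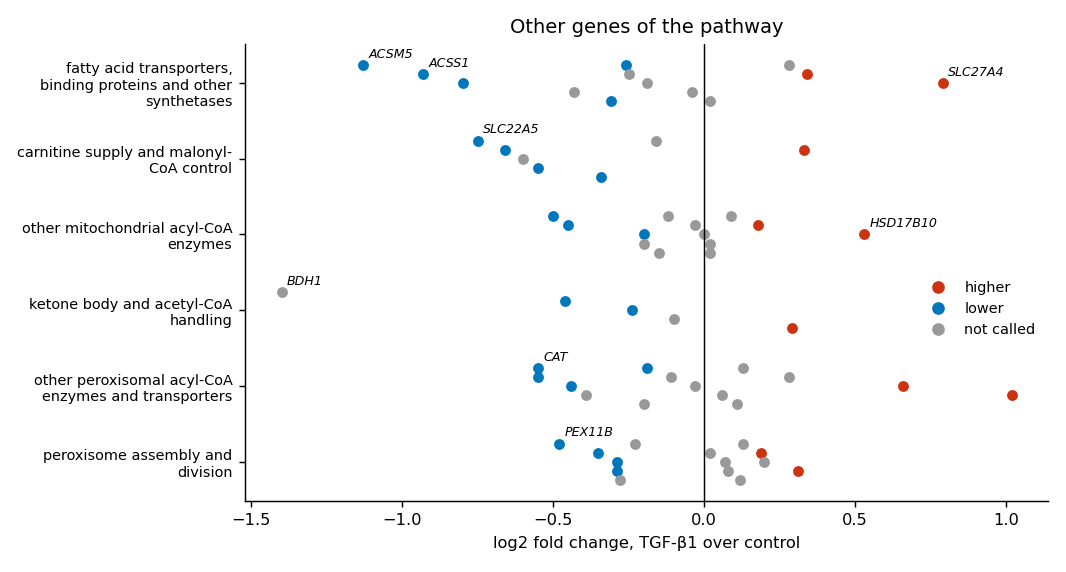
Log2 fold change of TGF-β1 over control (horizontal axis) for the 66 tested genes of the 6 other pathway lists (rows, with points spread within a row for legibility), coloured by call. SLC27A4 at 0.79 and SLC22A5 at -0.75 lie on opposite sides, CAT is at -0.55 in the peroxisomal list, and BDH1 at -1.40 was not called (SE 0.93).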

How the data were processed

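Poly(A) mRNA of 6 HK-2 libraries (3 control, 3 TGF-β1, 24 h) was sequenced by the authors as paired-end reads. Per the file headers, the deposited tables hold raw counts per gene, and the authors also deposited TPM values. The submitters' processing notes name featureCounts 2.0.1, hg38 and DESeq2 1.16.1. The aligner and the strand setting of counting are not given in the sources used here. TPM recomputed from counts and lengths differed from the deposited TPM by at most 3.6e-06.

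Each table listed 42095 entries. The 598 loci without a gene name (0.396% to 0.464% of counts) were left out, and 7 broken records were rejoined. Genes passed filterByExpr (minimum count 10), and 14860 were tested with TMM scaling and the two-sided quasi-likelihood F test of edgeR 4.0.16 (R 4.3.3), with Benjamini-Hochberg adjustment over all of them. CPM used TMM-scaled library sizes, and TMM is not part of TPM. Members under the filter were compared by reads, with exact conditional binomial tests, 95% exact intervals and exact permutation tests of CPM, all two-sided. Intervals, and the limit of 3 counts for a count of 0, cover counting error only.

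The alternatives were DESeq2 1.42.0, limma-voom (limma 3.58.1), RLE size factors, total counts only, no filter beyond 1 count, a filter at a mean of 50 counts, primary chromosomes only, entries of a name summed, a replicate block, a 1.2-fold limit, moving 3 genes between steps, and leaving out each library. The members, the lists and the tests were chosen with earlier results of these data known. Every member is named. Values in every library are given for called members with a log2 fold change of at least 0.5 in size, the 2 members of highest TPM per step, CPT1A, ACOX2 and members under the filter. Some genes of the other pathway lists are counted but not reported by name here.

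On data simulated from these libraries (14860 genes), the edgeR test recovered 56.4% of changes of 0.5 on the log2 scale. It recovered 74% of changes of 1, and 9.7% of its calls were unchanged genes. For more deeply counted genes (mean count 50 or more), recovery was 69.3% and 87.5%. Of the 31 members tested, 30 passed that limit. All these shares depend on how many genes are set to change in a simulation. They are therefore not the power or error rate for the members.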

Additional observations from a re-analysis of the deposited data

How the results depend on the processing

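Of 19 called members, 11 kept call and direction in all 15 alternatives run for each, 8 lost the call in at least 1, and 0 changed direction. These 15 do not include the 1.2-fold limit, against which 7 of the 11 were called and 4 were not (ACSL4, ACADSB, ECI2 and PEX11A). Members called higher numbered 7, and 4 with DESeq2, 1 with total counts only, 1 against a 1.2-fold limit and 3 to 6 without 1 library. Members called lower numbered 12, and 6 against the 1.2-fold limit. In activation and import, the 1 called higher became 0 with DESeq2, with total counts only and with all genes with a count, and 0 to 2 without 1 library. The 5 called lower became 3 to 5 without 1 library, with 3 without control replicate 1 or 2. In mitochondrial oxidation, the 5 called higher became 3 with DESeq2, 0 with total counts only, 3 with a filter at a mean of 50 counts, and 2 to 3 without 1 library. The 3 peroxisomal falls became 5 with CRAT, ECI2 and ACAD11 moved. Among other pathway genes, the 10 called higher became 6 with total counts only. Apart from the reassigned genes and the 1.2-fold limit, which follow from how these alternatives are built, the cause was not tested.

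The sign of some uncalled members turned. With total counts only, log2 fold changes were -0.10 for HADH, -0.04 for ECHS1, -0.01 for DECR1, -0.01 for ETFA and -0.05 for ACAA1. HADH was -0.01 with the filter at a mean of 50 counts, and -0.04 to 0.05 without 1 library. ECI1 was -0.07 to 0.04 without 1 library, and ACAA1 was -0.05 to 0.13.

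The replicate numbers did not pair the libraries, as deviations of same-numbered libraries correlated at 0.111, -0.012 and 0.076. With a replicate block, 6 members were called higher and 12 lower, and ACAA2 (0.15) lost its call. With 3 libraries per group and small changes, depth and spread limit what can be called for members under the filter and for changes of 0.5 or less.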
